A study of Caenorhabditis elegans with 2 samples.

Results

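The regions described here are places on chromosomes I to V of *C. elegans* where DNA was enriched when EGL-43 was precipitated. Their point of highest enrichment lay inside an exon of a protein-coding gene. EGL-43 is the worm homolog of the EVI1 (MECOM) zinc finger transcription factor and is needed for the invasion of the anchor cell, the gonadal cell that breaches the basement membrane towards the vulva. Chromatin was precipitated with the anti-GFP antibody ab290 from whole L3 larvae in which *gfp* was inserted at the 3′ end of *egl-43* in its own locus (allele *zh136[egl-43::gfp]*, strain label egl43-gfp), so that both EGL-43 isoforms are tagged. The sample titles give the background as wild-type. The larvae had grown for 27 h at 25°C after hatching at 20°C. A total of 2 independently grown populations of this 1 genotype and stage were processed separately, with formaldehyde and EGS as fixatives, and gave 2 peak lists (8394 peaks in replicate 1 and 10925 in replicate 2). No control library was used here, and chromatin of whole larvae does not tell in which cells a site was bound.

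For each peak, the lists hold a q-value and a fold enrichment. The fold enrichment divides the reads at the summit by a background that was estimated by the authors' peak caller. Overlapping peaks, by 1 bp or more, were merged across the replicates, and merged regions that held peaks from both were called shared. The position of a region was taken from the summit of its peak with the highest fold enrichment. A region was counted as exonic when this summit lay on an autosome, in an exon of a protein-coding gene (Ensembl release 115, WBcel235, the assembly that ce11 denotes) and not within 500 bp upstream of a protein-coding gene start. This held for 402 of the 7259 shared regions, or for 402 of the 5531 on autosomes (7.27%, 95% Clopper-Pearson interval 6.60 to 7.98%). Since 1 condition with 2 libraries gives no groups to compare, and regions of 1 library are not replicates, no test was made. Differences between classes of regions are given as values in each replicate, and intervals cover counting error only.

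An exon is the part of a gene that remains in the spliced RNA. The first exon usually starts with a 5′ untranslated region (5′ UTR), internal exons mostly code for protein, and the last exon ends in a 3′ UTR. Promoters lie at and just upstream of the site where transcription begins, and a gene with several promoters has transcripts that begin in exons or introns of its longer transcripts. Many worm pre-mRNAs are also trans-spliced to a short leader, which removes their original 5′ end, so that the annotated start of a gene need not be the site where transcription begins.

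The summit of the strongest region in a coding exon, in *unc-33*, and the matches to a pair of short words next to the summits of other exonic regions are shown first, because they give the DNA at the centre of the enrichment. For *unc-33*, the 29 bases are those around the summit (chrIV:3519541-3519569, plus strand, WBcel235), with the summit base in capitals:
unc-33: gagatagtacaagaAatggagagacgccg
AGATGAG is the site of the C-terminal zinc fingers of mammalian EVI1, and TGACTCA is the site of the AP-1 factors, to which FOS-1 belongs. In the lines that follow, capitals mark the word. For each word, the 3 strongest exonic regions with a match within 50 bp of the summit on chromosomes II to V are given. The matches lie at chrIII:7729883-7729907 (plus strand), chrIV:8229535-8229559 (plus strand), chrIII:6355080-6355104 (plus strand), chrII:14606961-14606985 (plus strand), chrII:7662521-7662545 (plus strand) and chrII:9003121-9003145 (minus strand), in the order of the lines:
ZK112.4: gagaaagagAGATGAGtctgtttcc
nhr-66: tatatagatAGATGAGaactatata
akap-1: gcaacagaaAGATGAGgatgagaag
arl-3: cacttcatcTGACTCAcaaacgtgc
alfa-1: ggaatagatTGACTCAtcaaaatgc
F44G4.7: attgcttttTGACTCAtaatcggga
The matches in *ZK112.4*, *akap-1* and *F44G4.7* fall in coding sequence and those in *nhr-66* and *arl-3* in a 5′ UTR. The match of *alfa-1* lies upstream of the gene, 34 bp from a summit that is inside the first exon. At *arl-3*, an ARF-like GTPase gene, the word is 1 bp from the summit of a region whose fold enrichment in replicates 1 and 2 was 6.10 and 6.50.

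Exons were the part of the autosomes with the fewest summits for their size. Coding-gene exons outside the 500 bp upstream windows make up 23.9 Mb, or 28.9% of the autosomes, and held 7.27% of the autosomal shared regions. This is a density of 16.8 summits per Mb of exon, against 87.4 per Mb in the rest of the autosomes. The densities of the other classes were 169 per Mb in the 500 bp upstream of coding genes, 108 per Mb between 500 and 2000 bp upstream, 55.5 per Mb in introns and 88.4 per Mb further away. Exonic density was highest on chromosome I (20.0 per Mb, 89 regions) and lowest on chromosome V (14.6 per Mb, 91 regions), a narrower range than that between classes.

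Within exons, the summits were not spread evenly. First exons are 13.0% of the exonic bases and had 209 of the 402 regions (51.99%, interval 47.0 to 57.0%), a density of 67.5 per Mb. Internal exons, with 64.7% of the exonic bases, had 97 regions (6.28 per Mb), and last exons, with 21.6% of the bases, had 85 (16.5 per Mb). The remaining 11 regions were in genes or transcripts with a single exon. By part of the transcript, 5′ UTRs had 175 regions at 144 per Mb, coding sequence 165 at 8.16 per Mb and 3′ UTRs 53 at 22.4 per Mb. The density in 5′ UTRs thus came near to that of the 500 bp upstream of genes, whereas coding sequence, 84.7% of the exonic bases, had the lowest density of the 3 parts. The other 9 summits lay in noncoding transcripts of coding genes. Classes were read in the longest coding transcript with an exon at the summit, and 44 of the 402 summits, 30 of them in first exons, are not in an exon of the longest transcript of the gene.

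**Figure D1:**
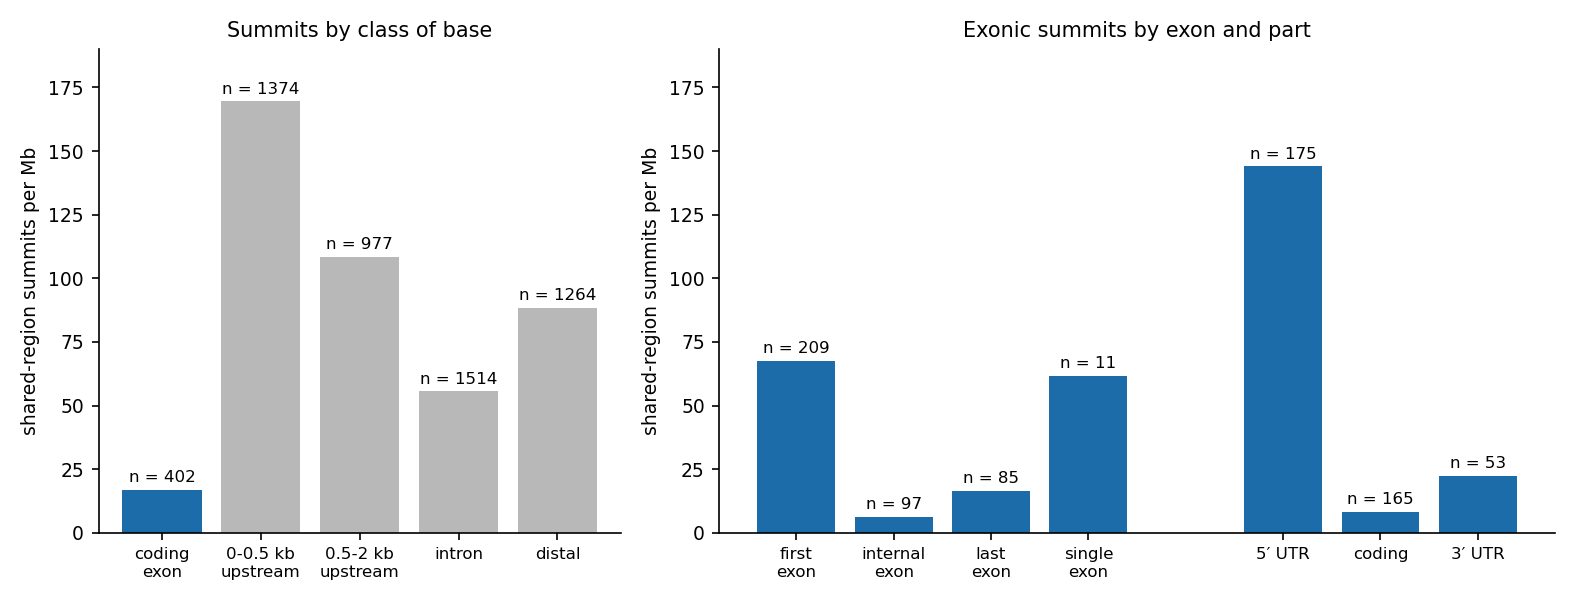
Number of shared-region summits per Mb of annotated autosomal sequence, with the number of regions above each bar. Left, coding exons (blue) beside the other classes of bases (grey), of which the 500 bp upstream of genes were the densest at 169 per Mb. Right, the 402 exonic regions by exon and by part of the transcript, from 6.28 per Mb in internal exons to 144 per Mb in 5′ UTRs.

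Along the gene, the density was highest next to the gene start, lowest between 500 and 2000 bp and higher again further on. Of the 402 summits, 146 lay in the first 250 bp after the gene start, where the density was 52.2 per Mb of exon, and 132 of these were in first exons. The density was 16.6 per Mb from 250 to 500 bp and 8.91 and 8.89 per Mb in the next bins, up to 1000 and 2000 bp. From 2000 to 5000 bp, with 67 summits, it was 11.7 per Mb. Beyond 5000 bp the density was 17.7 per Mb, and 21 of the 75 summits there were in first exons, hence in the first exon of a transcript that begins inside the gene. When every annotated transcript start is counted, 257 summits (63.9%) lay within 500 bp of one, on either side, in 26.6% of the exonic bases. The density was 40.5 per Mb within that distance and 8.27 per Mb outside it, where the other 145 summits were. These 145 comprised 72 in last, 59 in internal and 14 in first exons. For 151 of the 402 regions, and for 129 of those in first exons, the region itself reached into the 500 bp upstream of a coding gene although its summit was in the exon.

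Of the 85 last-exon summits, 60 (70.6%) were within 500 bp of the end of the gene, where 81.5% of all last-exon bases lie, so that these summits were not closer to gene ends than last exons are. Last exons with a summit were long, with a median of 565 bp, where the median over all last-exon bases is 444 bp. First exons with a summit were long as well (301 against 234 bp), and internal exons with a summit were short (179 against 284 bp). An exon edge lay inside 305 of the 402 regions, so that most regions reached beyond the exon. The other 97 regions were wholly inside 1 exon, 41 of them in first, 40 in last, 15 in internal and 1 in single exons.

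**Figure D2:**
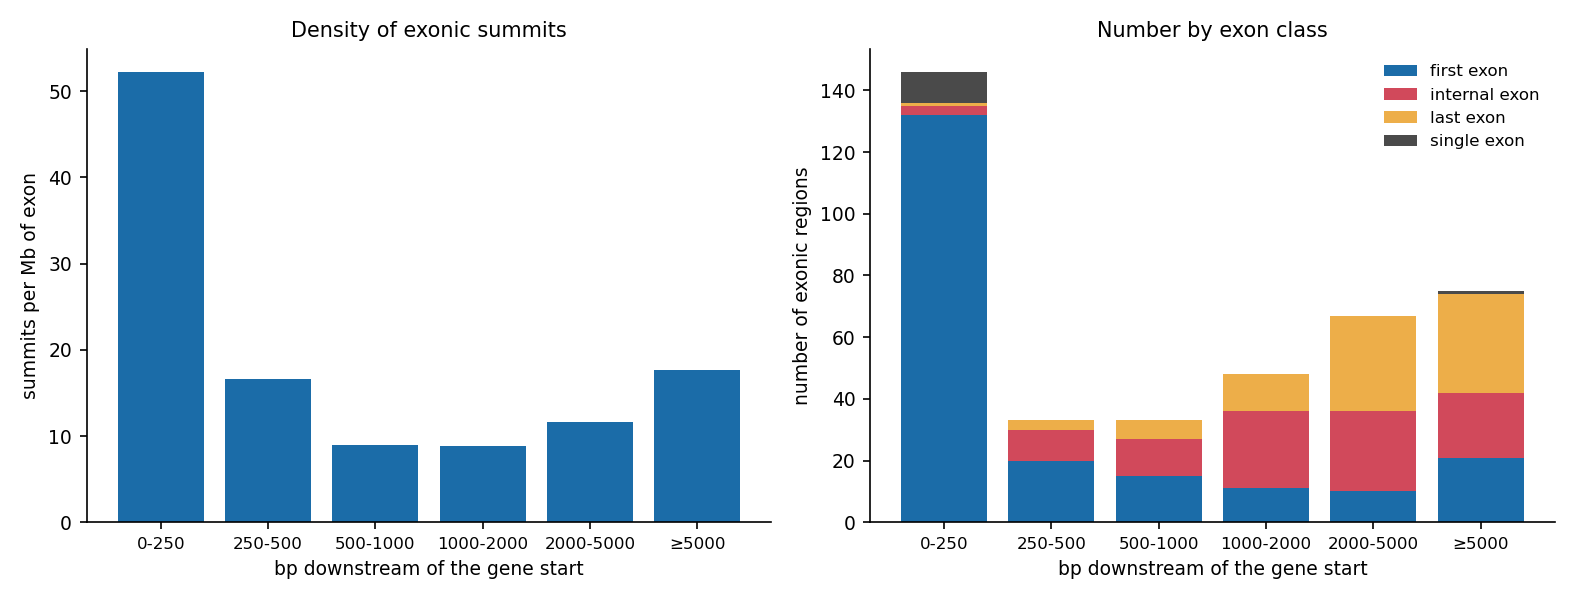
Exonic summits by distance downstream of the gene start. Left, summits per Mb of exon in each distance bin, 52.2 per Mb in the first bin and 8.89 per Mb between 1000 and 2000 bp. Right, the number of regions in each bin by exon class, with 132 of the 146 in the first bin in first exons.

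The fold enrichment of the exonic regions was low for autosomal regions in both replicates. It ran from 2.06 to 16.6 with a median of 3.52 in replicate 1 (quartiles 2.96 and 4.80), and from 2.19 to 16.7 with a median of 3.97 in replicate 2 (3.21 and 5.32). The other autosomal regions had medians of 3.97 and 4.47. The exonic median was below that of each of the 4 other classes in replicate 1 (3.83 to 4.18) and in replicate 2 (4.30 to 4.81), although the quartiles of all classes overlap. The lower of the 2 replicate values was at least 5 in 78 exonic regions (19.4%) and in 27.8% of the other autosomal regions, and it was below 3 in 33.8% against 23.1%. Of the strongest 553 autosomal regions by the lower value, 26 were exonic, which is 6.47% of the 402, against 10.3% of the other autosomal regions.

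First exons differed from the others in height too. The median fold enrichment of their regions in replicates 1 and 2 was 3.75 and 4.39, against 3.22 and 3.54 in internal exons and 3.14 and 3.41 in last exons. By part, the medians were 3.83 and 4.64 in 5′ UTRs, 3.22 and 3.63 in coding sequence and 3.31 and 3.45 in 3′ UTRs. The lower value was at least 5 in 28.0% of the 5′ UTR regions, 12.1% of those in coding sequence and 13.2% of those in 3′ UTRs. The 11 single-exon regions had the highest medians, 5.24 and 5.32, and 10 of them reached into the 500 bp upstream of a gene. Regions within 500 bp of a transcript start had medians of 3.66 and 4.24, and regions further away 3.14 and 3.54.

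**Figure D3:**
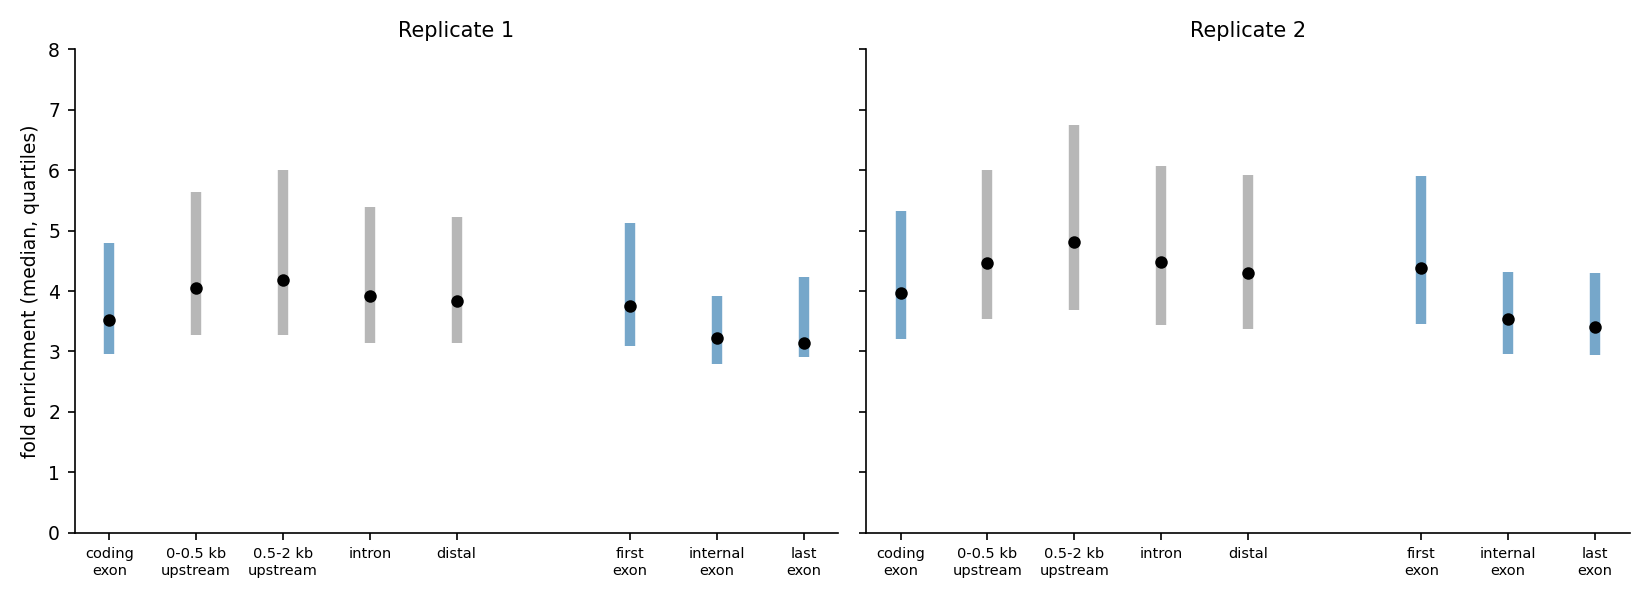
Fold enrichment of autosomal shared regions in replicate 1 (left) and replicate 2 (right). Points are medians and bars run from the lower to the upper quartile, for coding exons and the first, internal and last exons in blue and for the other classes of bases in grey. The exonic median, 3.52 and 3.97, is the lowest of the 5 classes in each replicate.

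The replicate lists differed in a similar way in exons and elsewhere. Across the 402 regions, the median of log2 of replicate 2 over replicate 1 was 0.15, with an SD of 0.30, and 269 regions were higher in replicate 2. In the other autosomal regions the median was 0.13 and the SD 0.31. Fold enrichment was correlated between the replicates with a Spearman's rho of 0.771 over the 402 exonic regions and 0.807 over the other 5129, where regions share their library and are not independent. A difference between 2 exonic regions of less than the replicate SD is therefore not resolved. In an exonic region, the replicate summits were separated by a median of 30 bp (quartiles 12 and 62.5 bp), against 24 bp elsewhere, and they were over 100 bp apart in 51 exonic regions. The median length was 343.5 bp for exonic regions and 358 bp for the others. A length of 800 bp or more was reached by 27 exonic regions.

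**Figure D4:**
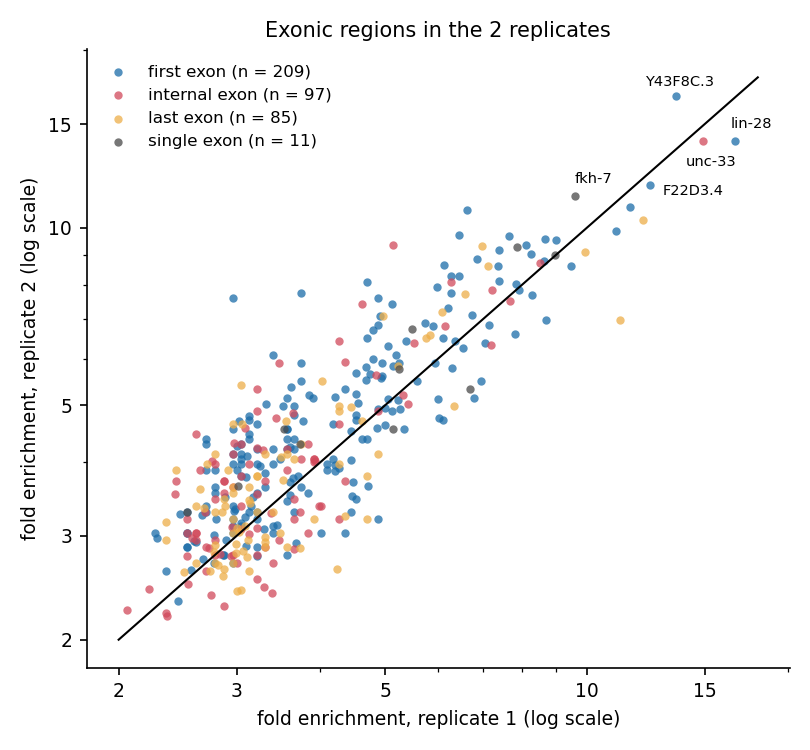
Fold enrichment of the 402 exonic regions in replicate 1 and replicate 2, both on log scales, coloured by exon class. The line marks equal values, 269 points lie above it, and the labelled genes are 5 of the strongest regions.

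The share of peaks with a partner in the other list was lower for exonic peaks than for other autosomal peaks in both lists. Each peak was placed by its own summit. The intervals below take the peaks of 1 library as independent and do not measure the spread between libraries. In replicate 1, 415 of 513 exonic peaks overlapped a peak of replicate 2 (80.9%, interval 77.2 to 84.2%), against 89.8% of the other autosomal peaks (interval 89.0 to 90.5%) and 89.1% of all. In replicate 2, 418 of 697 exonic peaks had a partner (60.0%, interval 56.2 to 63.6%), against 70.1% of the others (69.0 to 71.1%) and 69.2% of all. The lowest share was that of internal exons in replicate 2, with 101 of 201 peaks (50.2%, interval 43.1 to 57.4%). The exonic peaks without a partner were low, with medians of 2.79 (replicate 1) and 2.87 (replicate 2) in fold enrichment. For the exonic peaks with a partner it was 3.48 in replicate 1 and 3.96 in replicate 2. How far the height of the peaks sets the difference between classes was not tested.

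**Figure D5:**
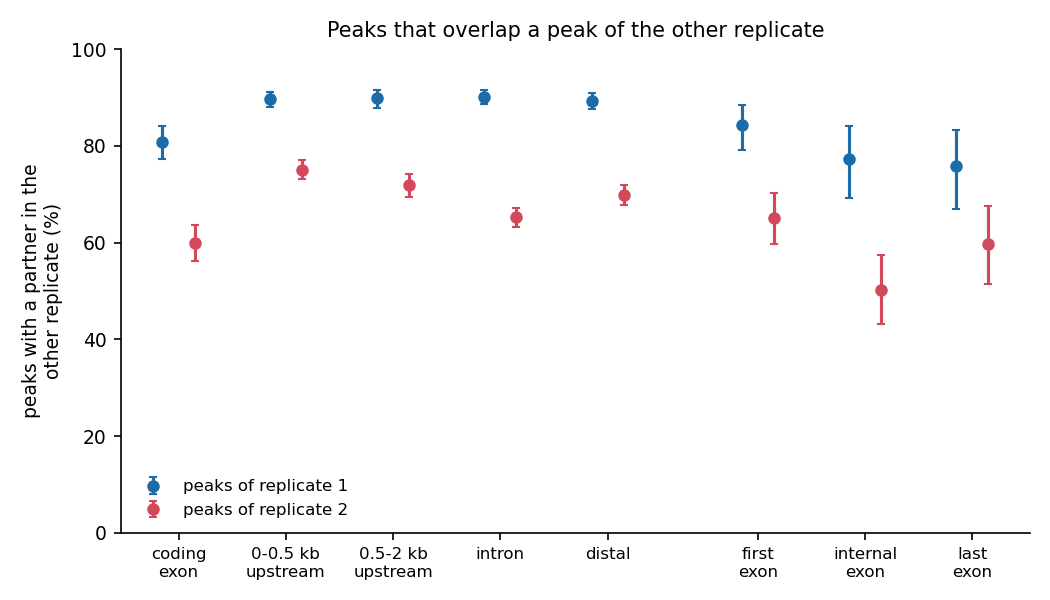
Share of autosomal peaks that overlap a peak of the other replicate, for peaks of replicate 1 (blue) and of replicate 2 (red), by the class of each peak's own summit. Bars are 95% Clopper-Pearson intervals. Exonic peaks had a partner in 80.9% and 60.0%, below the other 4 classes in each list.

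The strongest exonic region was at *lin-28*, the gene of an RNA-binding protein that regulates the timing of larval development and blocks *let-7* microRNA maturation. The values for replicates 1 and 2 were a fold enrichment of 16.6 and 14.1, with −log10 of the q-value at 178 and 143. The region (chromosome I, 8409360 to 8410226) ranked 20 of the 5531 autosomal regions by the lower value. The summit, at 8409906, is 898 bp downstream of the start of the gene but 14 bp inside the first exon of the transcript in which the exon was read. Next came *unc-33*, which encodes a microtubule-associated CRMP protein needed for axon growth. Here the summit (IV, 3519555) lay in coding exon 7 of 10, and the fold enrichment was 14.9 and 14.0. The exon is inside the gene by 2669 bp, yet another annotated transcript starts 129 bp downstream of the summit.

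*Y43F8C.3* on chromosome V (19622248 to 19622985) had 13.6 and 16.7, with the summit 98 bp into its 5′ UTR. *F22D3.4* on chromosome II (6926027 to 6927800) had 12.4 and 11.8, in a region that reached into the 500 bp upstream of a coding gene. Its summit lay 988 bp into an annotated first exon of 1730 bp, and no transcript start is closer than that. The same was seen at *rsbp-1*, where the summit was 1012 bp into a first exon of 2743 bp and the fold enrichment 8.99 and 9.55. At *egl-30*, the gene for the Gq alpha subunit that drives egg laying and locomotion, the values were 11.6 and 10.9. Its summit (I, 1836830) was 1169 bp into the gene and 179 bp downstream of a transcript start. A summit in a 5′ UTR was thus not always close to an annotated start.

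Among the strongest 10, *C05D11.8* and *C17E4.6* were exceptions in that their summits lay in 3′ UTRs. The region in *C05D11.8* (III, 6420639 to 6421711) had a fold enrichment of 12.1 and 10.3, with the summit 405 bp before the end of the gene and 1716 bp from the nearest coding transcript start. That in *C17E4.6* (I, 9430534 to 9430956) had 9.93 and 9.11, with the summit 410 bp before the end of the gene and 539 bp from the nearest start. This region also reached into the 500 bp upstream of a coding gene. The next 3′ UTR by strength was that of *ceh-8*, a homeobox gene, with 7.11 and 8.62. The end of *ceh-8* is 97 bp from that summit, and a noncoding RNA gene, *ZK265.11*, covers the same bases, so that the region cannot be given to one of them by position. The *ceh-8* region likewise reached into the 500 bp upstream of a coding gene.

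*Y18D10A.4* (I, 12815349 to 12816298) had the strongest region in the coding part of a first exon, at 11.1 and 9.89, with TGACTCA in its window. *fkh-7*, a forkhead transcription factor gene, had 9.60 and 11.3 (IV, 5607292 to 5607858). Its summit was 22885 bp into the gene, in a single-exon noncoding transcript of 3192 bp, 438 bp after the start of that transcript. The other leading single-exon regions, at *B0379.6* (8.96 and 8.99) and *ZK112.4* (7.87 and 9.27), lay 150 and 138 bp into short coding genes. *ZK112.4* carries an AGATGAG match 22 bp from its summit, shown above.

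After *unc-33*, the strongest regions in internal exons were at *uso-1* and *let-526*. *uso-1* encodes a vesicle tethering protein of the Golgi, and the summit in its exon 2 (IV, 13453704) had 8.51 and 8.70, at 205 bp from a transcript start. *let-526* encodes an ARID subunit of the SWI/SNF chromatin remodelling complex. Its region (I, 5311463 to 5312465) had 7.69 and 7.50. The summit was in a 5′ UTR, in exon 4 of 14, and 2280 bp from the nearest transcript start. A fold enrichment of at least 8 in both replicates was seen in 17 of the 402 regions.

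Of the genes that the study examines, *fos-1*, *zmp-1* and *egl-43* had 2 exonic regions each. *fos-1* encodes the AP-1 factor that drives anchor cell invasion. One region (V, 6007562 to 6008862, fold enrichment 8.10 and 9.37) had its summit 355 bp into the first exon of a transcript other than the longest one, 4822 bp into the gene. The other (V, 6010643 to 6011050, 4.88 and 6.84) was 7254 bp into the gene, in a first exon of 2108 bp, and 47 bp from another transcript start. *zmp-1* encodes a matrix metalloprotease, and its regions in exon 4 and in exon 1 had 3.73 and 3.29 and 3.05 and 4.14. The exon 1 summit was 15 bp after the gene start, with AGATGAG in its window. *egl-43* itself had summits in coding exon 3 (II, 9957246, 3.05 and 3.80) and coding exon 8 (II, 9961285, 2.79 and 2.95), ranks 4062 and 4710 of the 5531. The other autosomal genes on that list, among them *lin-12*, *jun-1* and *nhr-67*, had no exonic region. Thus 3 of 16 had one (18.75%), against 2.12% of all autosomal coding genes. A shared region touched an exon in 6 of the 16 (37.5%), against 8.62% of all. Neither share is an independent comparison, because the study names some of these genes for their EGL-43 enrichment in the same ChIP-seq data. The 16 genes also have a median of 2048.5 exonic bp, against 1136 bp for all. An absent exonic summit is not an absence of binding, since the study reports EGL-43 enrichment at the *lin-12* and *jun-1* loci. At *nhr-67* it saw no specific binding.

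The 402 regions were in 366 of the 17242 autosomal protein-coding genes (2.12%). Most of these genes, 336, had 1 exonic region, 25 had 2, and 4 had 3. *mnk-1*, the gene of a MAP kinase-interacting kinase, had the most, at 4 (coding exons 2 and 4, and 2 places in the 3′ UTR of exon 8, all on chromosome II). Both 3′ UTR summits also lie in an annotated noncoding RNA gene. All of its values were low, from 2.87 to 3.48 in replicate 1 and from 2.40 to 3.12 in replicate 2, so that the number of regions in a gene did not go with their height here.

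Gene families were set beside the 2.12% of all autosomal coding genes that had an exonic region. Nuclear hormone receptors, ligand-regulated transcription factors of which the worm has a large set, had one in 15 of 246 genes (6.10%). The strongest of these was at *nhr-64*, with 7.93 and 7.86 and the summit 33 bp after the gene start. Chemoreceptors of the sr families had one in 8 of 1143 genes (0.70%), led by *srm-2* (4.27 and 4.89, in its last exon). These are 8 gene identifiers, and a pair of them share the name *srd-71* and lie in repeated sequence. F-box protein genes had one in 1 of 305 (*fbxa-128*, 3.14 and 4.39). No exonic region was found in any of 129 collagen, 237 C-type lectin, 76 ribosomal protein, 67 cytochrome P450, 36 translation factor, 31 major sperm protein, 17 vacuolar ATPase, 10 tubulin or 12 basement membrane genes, or in the single vitellogenin gene on the autosomes. Collagens form the cuticle, and ribosomal proteins are among the most highly expressed genes of a larva.

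Smaller lists had few members. Of 15 glycolytic enzyme genes, *hxk-3* (hexokinase, 6.36 and 6.44, 19 bp after the gene start) and *aldo-2* (aldolase, 2.28 and 2.98) had an exonic region. The proteasome subunit gene *pas-6* had one of 5.75 and 6.50 in its 3′ UTR, 13 bp from the end of the gene (1 of 33 such genes, 3.03%). *mlc-7*, a myosin light chain gene, had 3.01 and 4.27 (1 of 19 actin and myosin genes, 5.26%). *hsp-1*, an HSP70 chaperone gene, had 3.52 and 3.74 in its 3′ UTR (1 of 19 heat shock genes, 5.26%). Of 45 *ceh* genes, *ceh-8* had an exonic region (2.22%). The neuropeptide genes with one were *nlp-82* (3.22 and 2.53) and *flp-4*, of 106 (1.89%). The shares of proteasome, *ceh* and neuropeptide genes were near the 2.12% of all autosomal coding genes. Each share in these smaller lists rests on 1 or 2 genes. The counts differ when any overlap of a shared region with an exon is taken in place of the summit, which 8.62% of all autosomal coding genes had. By that measure 61 of 76 histone genes (80.3%), 9 of 19 heat shock genes (47.4%), 6 of 15 glycolytic genes (40%) and 10 of 33 proteasome genes (30.3%) were touched. Nuclear hormone receptors were touched in 30 of 246 genes (12.2%), chemoreceptors in 24 of 1143 (2.10%) and F-box genes in 4 of 305 (1.31%). Of the lists without an exonic summit, tubulins (2 of 10, 20%) and translation factors (5 of 36, 13.9%) had shares above 8.62%. The shares were lower in ribosomal protein (6 of 76, 7.89%), vacuolar ATPase (1 of 17, 5.88%), cytochrome P450 (3 of 67, 4.48%) and collagen genes (2 of 129, 1.55%). No C-type lectin, major sperm protein, basement membrane or vitellogenin gene was touched. Among histones, only *htz-1*, which encodes the H2A.Z variant, held the summit (2.73 and 2.61). Histone genes are short, with a median of 384 exonic bp against 1136 bp for all genes. Major sperm protein genes have the same median, with 0 of 31 touched. Neuropeptide genes have a median of 473.5 bp, with 7 of 106 touched (6.60%). The median of nuclear hormone receptor genes, 1331.5 bp, is above that of all genes. The families differ in length and in the bases that lie more than 500 bp from a start, and the part of this in the counts was not tested.

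Exonic summits were richer in G and C than exons are. In the 101 bp around the summit, the median GC content was 45.5% (quartiles 40.6 and 50.5%), against 39.6% in all 236459 tiled exon windows of that length (34.7 and 44.6%). It was 46.5% in 5′ UTRs, against 36.6% of 5′ UTR windows, 45.5% in coding sequence (windows 40.6%) and 41.6% in 3′ UTRs (windows 31.7%). The summits of the other classes had similar medians, between 44.6% in distal regions and 46.5% in the 500 bp upstream of genes, over windows with medians of 32.7 to 33.7%. Thus the classes were alike in the base composition of their summits, while the exons were not alike with the other classes in that of all their windows. Whether base composition affected the calls was not tested.

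The words were searched on both strands in the same windows. AGATGAG occurred in 17 of the 402 (4.23%, interval 2.48 to 6.68%), and in 1.77% of all tiled exon windows. Within 25 bp of the summit it was in 5 of the 402 (1.24%, interval 0.405 to 2.88%), against 0.854% of tiled exon windows of that length, a share that lies inside the interval. In the longer windows, the other classes of regions had it in 3.49 to 4.76%, over tiled shares of 0.812 to 1.198%. TGACTCA, whose reverse complement is TGAGTCA, was in 21 exonic windows (5.22%, interval 3.26 to 7.87%) and in 0.841% of tiled exon windows, and in 2.69 to 3.63% of the regions of the other classes. Internal exons had it in 8 of 97 windows (8.25%, interval 3.63 to 15.6%) and first exons in 8 of 209 (3.83%, 1.67 to 7.40%), intervals that overlap. Both words can share bases, because the last 4 letters of AGATGAG are the first 4 of TGAGTCA, and 2 exonic windows had both. ACAAGATA, the site of the N-terminal zinc fingers of mammalian EVI1, was in 1 exonic window (0.249%), against 0.313% of tiled exon windows. In total 36 of the 402 windows held AGATGAG or TGACTCA. A match is a description of the sequence and not a site at which binding was shown.

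At the 500 bp limit, the summits just kept lay 509 bp upstream of *ZC518.8*, in an exon of *ccr-4* (3.51 and 4.98), 509 bp upstream of *T16G1.9*, in *T16G1.18* (5.11 and 4.88), and 510 bp upstream of *F25E5.16*, in *F25E5.9* (6.57 and 7.72). Those just left out lay 472 bp upstream of *atp-4*, in *alh-4* (3.24 and 4.06), 471 bp upstream of *Y17G7B.20*, in *ash-2* (3.80 and 4.33), and 464 bp upstream of *F57B9.8*, in *byn-1* (2.79 and 3.97). In all, 67 regions had a summit in a coding exon and were left out because it was also within 500 bp upstream of a coding gene.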

How the data were processed

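The samples and replicate numbers came from the sample labels. The authors aligned reads to ce11 with BWA and ran the peak caller MACS2 on every replicate by itself, at a stated false discovery rate of 0.05. The deposited lists precede the authors' later splitting, thresholding and removal of blacklisted regions. They hold, per peak, a fold enrichment (the ratio over the background that MACS2 estimated), −log10 of the p-value and of the q-value, and a deposited score, 10 times the latter, which was not used. The highest q-values are 0.00395 and 0.00688. The lists give no read totals, so the depth is unknown.

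Merging, summits and classes were computed as the report states, in Python 3.11.15 with numpy 2.4.6, scipy 1.17.1 and matplotlib 3.10.9. Densities used the class of every autosomal base, with the 500 bp upstream of genes taken before exons and exons before introns. Positions count from 1, and sequences came from the RefSeq WBcel235 assembly. Merging and classes were tested on simulated data. Where several coding genes had an exon at a summit (6 regions), the one with the longest transcript was taken.

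The named genes were the 10 strongest regions by the lower replicate value, the 3 strongest of each exon class and transcript part, the gene with most regions, the genes examined in the study, the strongest of each family, and the 3 summits on each side of the 500 bp limit. Genes outside this rule were chosen after their values were seen: those of the printed sequences, *aldo-2*, *flp-4* and *srd-71*, and those of the closing section. Members and lists were chosen with earlier results of these data known.

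The alternatives were a −log10 q-value of at least 5, a reciprocal overlap of 50%, summits within 100 bp, the summit of either replicate, the longest transcript only, all transcript starts, an upstream limit of 1000 bp or none, each list alone, and windows of 25 and 100 bp either side.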

Additional observations from a re-analysis of the deposited data

How the results depend on the processing

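No paired analysis was possible because there is 1 group. The number of exonic regions stayed within 1.5 times 402 when the q-value, overlap, summit, transcript or upstream limit was changed (325 to 469 regions), and so did the counts by exon class and part, with 1 exception. When the 500 bp were taken upstream of every transcript start, 5′ UTR regions numbered 115 in place of 175, since this removes first exons upstream of a second start, and the exonic share was 5.88%. The share was 6.47% with the longest transcripts only, 6.38% with a limit of 1000 bp and 8.48% with no limit. With each list alone, which includes peaks without a partner, the exonic peaks numbered 513 to 697 (8.01 to 8.54%), with 254 to 329 in first, 132 to 201 in internal and 116 to 154 in last exons, and 226 to 338 in coding sequence and 70 to 96 in 3′ UTRs. Counting any shared region that touches an exon gave 1486 genes in place of 366. With 25 bp either side, AGATGAG was in 1.24% of windows (0.854% of tiled exon windows of that length) and TGACTCA in 3.23% (tiled 0.399%), and with 100 bp TGACTCA was in 9.20% (tiled 1.72%). The cause of the change in AGATGAG was not tested. In the 100 strongest regions, TGACTCA was in 3% and ACAAGATA in 0%. The median of the lower fold enrichment was 3.29 and ran from 3.21 to 3.52 under the alternatives. In the other autosomal regions it was 3.75 under the main setting.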

Other observations

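A few exonic regions lay in repeated sequence or in noncoding genes. Of all the 32-base words in the 101 bp window around a summit, over 50% occurred more than once in the genome for 15 of the 402 regions. The median fold enrichment of these was 2.79 and 2.86 in replicates 1 and 2, against 3.57 and 4.05 in the 379 regions without a repeated word. The strongest of them was in *F44E5.5*, an HSP70 family gene on chromosome II, with 6.96 and 9.30, a length of 2378 bp and 100% of its words repeated, so its reads cannot be told apart from those of a near-identical copy. The 2 lowest of the 402 were both in *ZC247.1* (2.06 and 2.25, and 2.36 and 2.19), again with 100% repeated words. A region with repeated words also lay in the 12217 bp exon 25 of *ttn-1*, the titin gene of muscle, at 2.22 and 2.44. In 10 regions the summit was inside a noncoding gene as well, in 9 a noncoding RNA and in 2 a small nuclear RNA gene. At the small nuclear RNA genes, in *K09C6.2* (3.66 and 3.21) and *F08H9.3* (2.79 and 3.54), the peak cannot be given to one gene by position.

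Regions in *lin-42*, the worm homolog of the period gene and a regulator of molting and developmental timing, were among the strongest with a summit inside a long gene. One lay in the first exon of a shorter transcript, 15681 bp into the gene, with 8.27 and 7.68. The other, 12651 bp into the gene, lay in the last exon of a transcript other than the longest one. It had 11.2 in replicate 1 and 6.97 in replicate 2. *kin-1*, the catalytic subunit gene of protein kinase A, also had its summit in the first exon of a transcript that begins inside the gene, 26546 bp after the gene start and 26 bp from a transcript start, with 6.62 in replicate 1 and 10.7 in replicate 2.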
